A study of Mus musculus with 12 samples.

Results

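Cubn, Amn, Lrp2, Dab2, S100g, Tmprss2 and Cited1, genes of the absorptive epithelium of visceral endoderm, are 7 of 13067 genes measured here. They were chosen by symbol in the platform's gene table with results of these data known. S100g, Tmprss2 and Cited1 belong to the largest differences between control day8 and control day0, so the values at day 8 against day 0 are given below as a description, without a test. The 7 genes had 16 probe sets, and the one with the highest mean over the 12 arrays stood for each gene. All 7 of these passed the filter on low values. S100g, Tmprss2 and Cited1 passed it through their day 8 arrays, so passing is no sign of a difference in itself.

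Visceral endoderm is the epithelium that covers the early mouse embryo and lines the yolk sac, where it takes up maternal proteins before a placenta works. Its apical membrane carries Lrp2 (megalin), a giant receptor of the LDL receptor family, and Cubn (cubilin), a receptor without a membrane segment that Amn (amnionless) anchors and brings to the cell surface. Dab2, a clathrin adaptor, links the tails of such receptors to the endocytic machinery, and the receptors return to the surface through recycling endosomes. S100g (calbindin-D9k) carries calcium through absorptive cells, Tmprss2 is a membrane-bound serine protease of epithelia, and Cited1 is a transcriptional coactivator that binds CBP and p300.

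RNA came from the mouse ES cell line D3, grown on a layer of MMC-treated mouse embryonic fibroblasts. Differentiation went through embryoid bodies, floating aggregates that give rise to several embryonic tissues. The groups of 3 arrays each were NP day8 and BPA day8, differentiated cells given the agent of that name, control day8, differentiated cells without an agent, and control day0, undifferentiated cells without an agent. The labels spell out neither agent, give no dose and leave the origin of the replicates unstated, so a p-value here covers the spread among these arrays, which may be technical. All groups come from 1 cell line, and in whole cultures fewer cells of a type and less RNA per cell cannot be told apart.

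Values are log2 signals of an Affymetrix array, on a scale where every array has the same trimmed mean. A level of background was taken from the bacterial TrpnX control probe sets, whose highest value on 12 arrays was 3.41. Signals of different probe sets are not compared with each other. The cell type label was checked against 8 markers of visceral endoderm (Afp, Ttr, Apoa1, Apob, Rbp4, Hnf4a, Ihh and Foxa2). Their summed linear signal ran from 12860 to 15360 on NP day8 arrays, from 7055 to 11030 on BPA day8 arrays, from 7890 to 15440 on control day8 arrays and from 70.4 to 94.0 on control day0 arrays. At day 0, 4 of the 8 markers (Afp, Ttr, Hnf4a and Ihh) lay under the background level on all 3 arrays, and at day 8 none did in any group.

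An array stood apart for these genes. Control day8 replicate 3 was the highest of its group for 7 of 7 genes, as it was for 41.5% of all genes. Its log2 signal exceeded the mean of control day8 replicates 1 and 2 by 0.56 for Lrp2 up to 1.65 for S100g, while the median over all genes was 0.05. It also held the highest summed signal of visceral endoderm markers in its group. For the 7 genes, differences from control day8 are given with and without it below; list and marker values are given only with it.

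**Figure D1:**
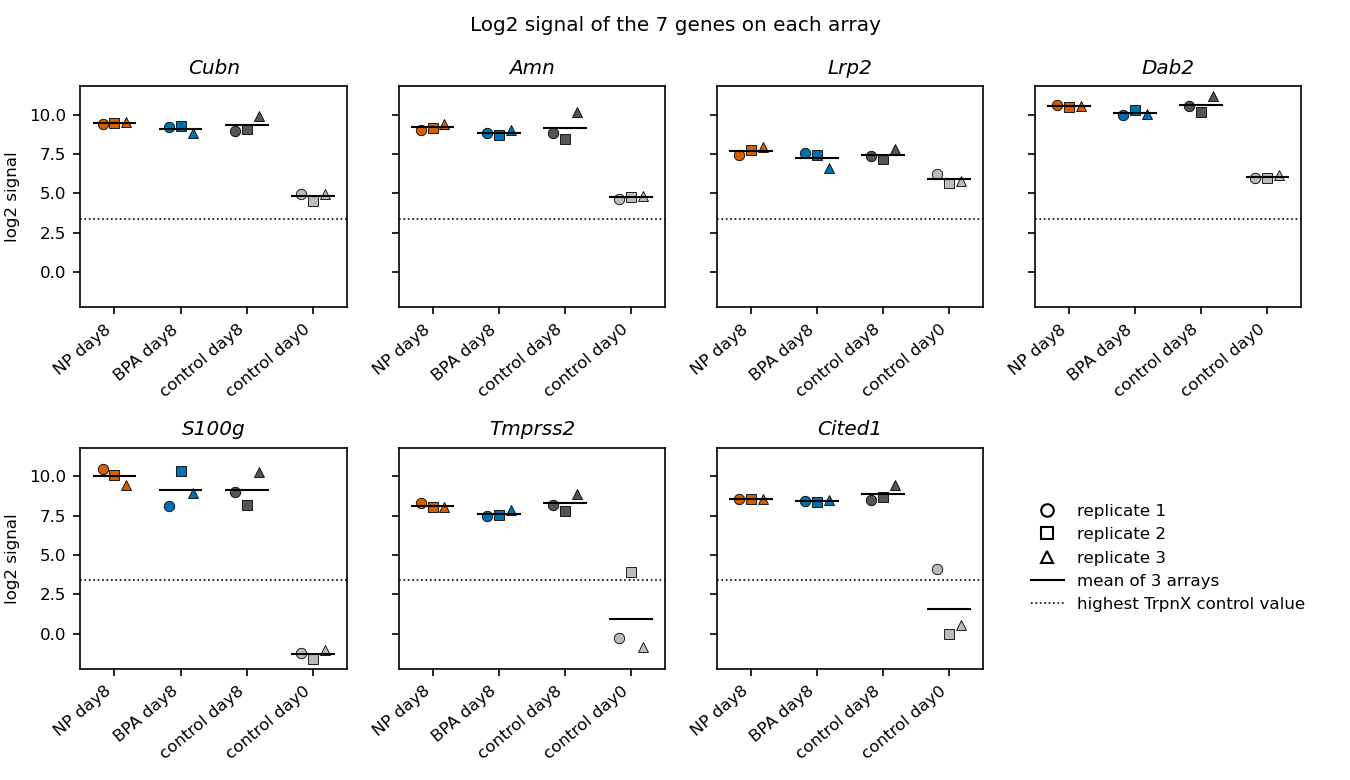
Log2 signal of each gene (vertical axis) on the 12 arrays, by group, with the replicate number as symbol, the group mean as a bar and the highest TrpnX value (3.41) as a dotted line. For each of the 7 genes the 9 day 8 arrays lie above the 3 control day0 arrays, and control day8 replicate 3 is the highest control day8 array.

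The receptor pair of cubilin and amnionless was high on all day 8 arrays, with or without an agent. Cubn had 9.43, 9.46 and 9.54 on NP day8 arrays, 9.23, 9.31 and 8.81 on BPA day8 arrays, 8.99, 9.09 and 9.94 on control day8 arrays and 4.98, 4.50 and 4.97 on control day0 arrays. The day 8 groups did not overlap with day 0, and the NP day8 arrays had an SD of 0.06 (n = 3). Amn had 9.05, 9.18 and 9.42 with NP, 8.81, 8.71 and 9.03 with BPA, 8.81, 8.48 and 10.17 in control day8 and 4.66, 4.79 and 4.82 in control day0. Against day 0, Cubn was 25.4-fold higher with NP, 19.7-fold with BPA and 23.1-fold in the control, and Amn 22.1-fold, 17.1-fold and 21.1-fold in the same order. Over the 12 arrays, each centred on its own mean, the pair differed by a root mean square of 0.29 on the log2 scale.

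Since Cubn and Amn moved together between day 0 and day 8, their promoters are shown, 250 bases before to 50 after the start given by RefSeq (GRCm38.p6). Cubn lies at chr2:13491827-13492126 on the minus strand and Amn at chr12:111270846-111271145 on the plus strand. Capitals would mark the letters searched on both strands for GATA factors (GATAA), FOX factors (TGTTTAC), HNF1 (GTTAAT) and the TATA box (TATAAA), and neither window holds any of them. The Amn window holds the letters of a GC box, GGGCGG on the opposite strand, at bases 216 to 221.
Cubn: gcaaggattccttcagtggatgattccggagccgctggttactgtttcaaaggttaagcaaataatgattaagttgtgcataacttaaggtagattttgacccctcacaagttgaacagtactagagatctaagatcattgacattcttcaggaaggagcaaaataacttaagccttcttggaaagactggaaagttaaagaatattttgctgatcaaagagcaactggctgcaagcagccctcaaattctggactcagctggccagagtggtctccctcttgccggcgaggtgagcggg
Amn: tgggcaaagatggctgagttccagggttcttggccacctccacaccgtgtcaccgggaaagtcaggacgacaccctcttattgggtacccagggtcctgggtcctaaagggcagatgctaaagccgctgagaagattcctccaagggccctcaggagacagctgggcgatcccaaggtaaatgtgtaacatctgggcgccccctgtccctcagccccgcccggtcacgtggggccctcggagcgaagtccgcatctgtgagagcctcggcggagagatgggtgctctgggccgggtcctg
The windows also differ in base composition, with 44.3% G and C and 5 CpG pairs for Cubn against 62.3% and 15 for Amn. Over all 32851 promoter windows the medians were 52.7% and 7. The missing letters say nothing of the factors.

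Lrp2, the megalin gene, differed least between day 8 and day 0. It had 7.43, 7.74 and 7.92 on NP day8 arrays, 7.58, 7.47 and 6.60 on BPA day8 arrays, 7.35, 7.21 and 7.84 on control day8 arrays and 6.21, 5.67 and 5.82 on control day0 arrays. All 9 day 8 values lay above the 3 day 0 values, with BPA day8 replicate 3 closest to them. The fold over day 0 was 3.47 with NP, 2.49 with BPA and 2.96 in the control. A further probe set, 1452320_at, gave log2 differences from day 0 of 1.27, 0.90 and 0.79 in the same order, and 1445901_at, whose signal lay near the background level (mean 3.49), gave 0.23, 0.13 and 0.01.

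Dab2, the adaptor, followed the cubilin receptor pair. Its values were 10.60, 10.46 and 10.53 with NP, 9.95, 10.29 and 10.07 with BPA, 10.56, 10.19 and 11.18 in control day8 and 5.97, 6.0 and 6.15 in control day0. Again the day 8 groups lay far above day 0, by 22.5-fold, 16.7-fold and 24.3-fold in that order. Dab2 has 2 promoter windows, and the upstream one, at chr15:6299539-6299838 on the plus strand, is shown since it holds the letters GATAA at 2 places. They are in capitals, at bases 73 to 77 on the plus strand and, as TTATC, at bases 265 to 269.
Dab2: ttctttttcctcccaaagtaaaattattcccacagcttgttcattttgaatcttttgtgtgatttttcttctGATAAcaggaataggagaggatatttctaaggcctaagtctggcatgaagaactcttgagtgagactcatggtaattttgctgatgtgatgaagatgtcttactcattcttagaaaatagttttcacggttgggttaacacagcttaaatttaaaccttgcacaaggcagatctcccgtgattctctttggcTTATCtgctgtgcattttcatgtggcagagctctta
The other Dab2 window, at chr15:6386498-6386797, holds GTTAAT 1 time and no GATAA.

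S100g, the calcium carrier, was under background at day 0 and high at day 8. It had 10.46, 10.10 and 9.43 on NP day8 arrays, 8.13, 10.30 and 8.91 on BPA day8 arrays and 9.01, 8.19 and 10.25 on control day8 arrays. On control day0 arrays it was at -1.22, -1.58 and -1.03, all under the background level. Against that level, S100g was at least 96.2-fold higher with NP, at least 52.3-fold with BPA and at least 53.6-fold in the control. Its day 8 values varied most of the 7 genes, with a range of 2.32 over the 9 arrays, where the other members ranged from 1.08 for Cited1 to 1.69 for Amn.

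The S100g promoter is shown as the only one of the printed windows with TATAAA. It lies at chrX:162964550-162964849 on the minus strand. The capitals mark the FOX letters read on the opposite strand (bases 204 to 210) and TATAAA (bases 251 to 256). TATAAA lies after the first 250 bases, which precede the annotated start.
S100g: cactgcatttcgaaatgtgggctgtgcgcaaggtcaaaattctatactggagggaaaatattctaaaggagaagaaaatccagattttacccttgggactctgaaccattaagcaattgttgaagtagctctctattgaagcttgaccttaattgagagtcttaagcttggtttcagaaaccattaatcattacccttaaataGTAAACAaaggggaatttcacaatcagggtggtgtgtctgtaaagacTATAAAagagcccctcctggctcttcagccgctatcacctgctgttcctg
AGGTCA, the core letters of nuclear receptor sites, occurs 2 times in lower case (bases 31 to 36, and on the opposite strand bases 144 to 149). No match in the 10 windows of the 7 genes overlapped another.

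Across those 10 windows, GATAA was found in 2, TGTTTAC in 1, GTTAAT in 1, AGGTCA in 2, TATAAA in 3 and GGGCGG, the GC box, in 3. Of all 32851 windows of the same length, 25.4%, 3.65%, 7.1%, 16.3%, 13.6% and 35.7% held them in turn. No motif was common to the promoters of all 7 genes, and a match is a description of letters only.

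Tmprss2 and Cited1 were near or under background at day 0. Tmprss2 had 8.31, 8.06 and 8.03 with NP, 7.49, 7.53 and 7.83 with BPA, 8.14, 7.81 and 8.87 in control day8 and -0.29, 3.93 and -0.84 in control day0. Cited1 had 8.57, 8.53 and 8.54 with NP, 8.40, 8.37 and 8.48 with BPA, 8.51, 8.65 and 9.44 in control day8 and 4.09, 0.01 and 0.55 in control day0. For each gene 2 of 3 day 0 arrays lay under the background level, and day 8 arrays did not overlap with them. With values under the level set to it, Tmprss2 was higher than at day 0 by at least 4.55 (log2) with NP, 4.04 with BPA and 4.69 in the control, and Cited1 by at least 4.91, 4.78 and 5.24.

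For all 7 genes the arrays of NP day8, BPA day8 and control day8 lay above those of control day0 without overlap. Over all genes this held for 28.0% (NP), 30.0% (BPA) and 32.5% (control), with 24.2% lower without overlap in the control, and 48.7% of all genes passed at control day8 against day0 by limma (28.3% higher, 20.5% lower). Since the members were chosen with these differences known, nothing is read from the counts. Of the 9 other probe sets of the 7 genes, 7 showed the same separation in all 3 groups, and the exceptions were Lrp2 1445901_at and Tmprss2 1459510_at, both near or under background. The Cubn probe set 1426990_at had day 0 values of 0.60, 2.84 and -0.14, under the background level, where the chosen probe set had a signal.

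**Figure D2:**
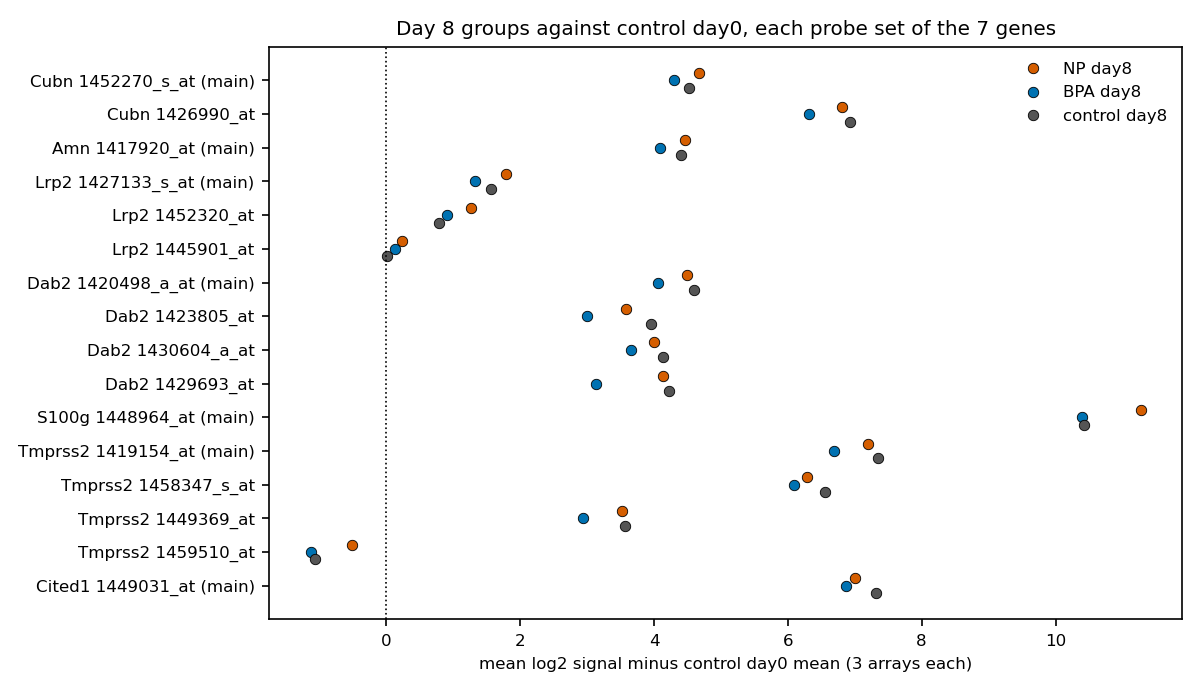
Mean log2 signal of NP day8, BPA day8 and control day8 minus that of control day0 (horizontal axis, 3 arrays per group) for each of the 16 probe sets. S100g lies highest, against day 0 values under background, and Tmprss2 1459510_at, also under background, lies below 0. The groups lie apart for some probe sets, such as Dab2 1429693_at with 4.14 for NP, 3.14 for BPA and 4.22 for the control.

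Each agent was then compared with control day8. None of the 7 passed with NP against control day8 (limma, adjusted p between 0.407 and 0.949), where 14.2% of all genes passed (7.90% higher, 6.28% lower), and 0 of 7 had an unadjusted p under 0.05. None passed with BPA (adjusted p between 0.103 and 0.974), where 22.2% of all genes passed (12% higher, 10.2% lower), and 1 of 7, Dab2, had an unadjusted p under 0.05. The comparisons share the control day8 arrays, which also took part in the choice of members. The order of the group means was NP day8, control day8, BPA day8 for Cubn, Amn, Lrp2 and S100g and control day8, NP day8, BPA day8 for Dab2, Tmprss2 and Cited1, but no neighbours in this order differed past the threshold.

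With NP, the differences ran from -0.32 for Cited1 to 0.84 for S100g, with a median of 0.07 and 4 of 7 above 0, against a median of 0.01 over all genes. Cubn differed by 0.14 ± 0.25 (SE, 3 arrays per group; 95% interval -0.43 to 0.70), Amn by 0.07 ± 0.36 (-0.73 to 0.86) and Dab2 by -0.11 ± 0.22 (-0.60 to 0.37). As folds, these intervals run from 0.743 to 1.63 for Cubn and from 0.662 to 1.29 for Dab2. Lrp2 was at 0.23 ± 0.28 (-0.40 to 0.86) and S100g at 0.84 ± 0.61 (-0.52 to 2.21). Tmprss2 was at -0.14 ± 1.0 (-2.39 to 2.10) and Cited1 at -0.32 ± 0.85 (-2.23 to 1.58). All 7 NP groups overlapped with control day8, where 17.7% of all genes were higher and 17.1% lower without overlap.

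With BPA, all 7 differences lay below 0, between -0.66 for Tmprss2 and -0.04 for S100g, with a median of -0.30 against 0.04 over all genes. Dab2 came closest to the threshold, at -0.54 ± 0.22 (95% interval -1.02 to -0.06, adjusted p = 0.103 by limma). Cubn was at -0.23 ± 0.25 (-0.79 to 0.34), Amn at -0.30 ± 0.36 (-1.10 to 0.49) and Lrp2 at -0.25 ± 0.28 (-0.88 to 0.38). S100g was at -0.04 ± 0.61 (-1.40 to 1.33) and Tmprss2 at -0.66 ± 1.0 (-2.90 to 1.59). Cited1 was the 1 gene whose chosen probe set had all BPA arrays below those of control day8, as 19.2% of all genes did. Its difference was -0.45 ± 0.85 (-2.36 to 1.46). Other probe sets also lay below control day8 without overlap: Cubn 1426990_at (-0.61), Tmprss2 1449369_at (-0.63), Dab2 1423805_at (-0.96) and Dab2 1429693_at (-1.08). Lrp2 1452320_at and 1445901_at went the other way, at 0.10 and 0.11.

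The wide intervals of Tmprss2 (SE 1.0) and Cited1 (SE 0.85) stand beside day 0 values that scattered under background and enter the same estimate of spread. With values under the level set to it, the SE was 0.25 and 0.24. Tmprss2 was then at -0.66 with BPA (adjusted p = 0.0774 by limma) and -0.14 with NP (adjusted p = 0.752), and Cited1 at -0.45 with BPA (adjusted p = 0.204) and -0.32 with NP (adjusted p = 0.411). Neither gene passed in that fit.

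**Figure D3:**
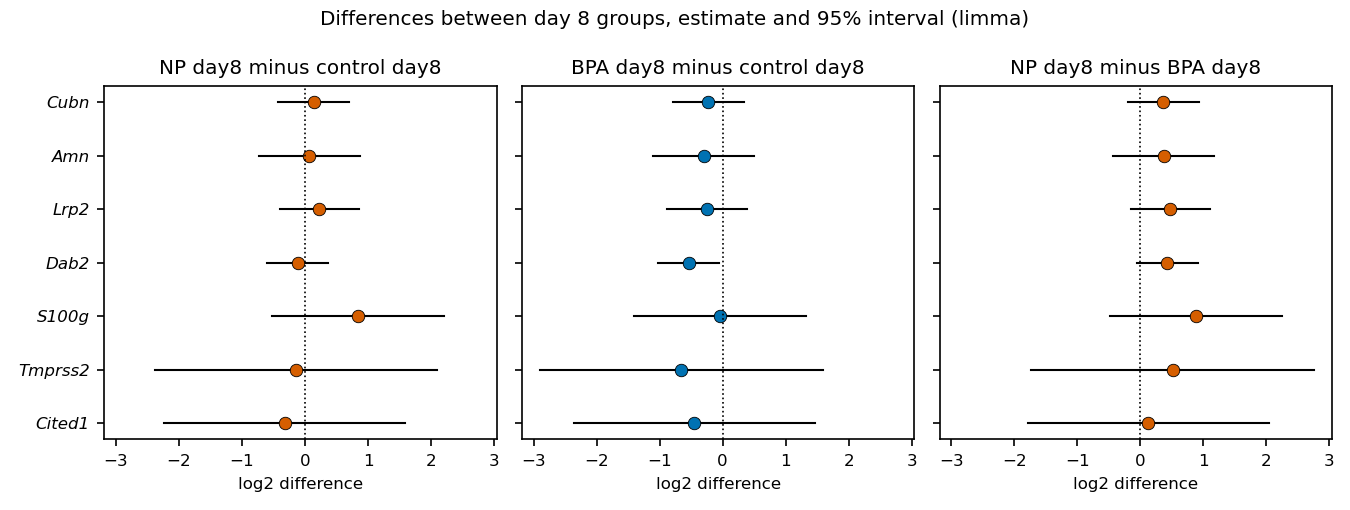
Log2 differences between day 8 groups (horizontal axis) for the 7 genes, as estimates with 95% intervals from limma over 12 arrays. With NP against control day8 the estimates lie on both sides of 0, with BPA all 7 lie below 0 and with NP against BPA all 7 lie above 0; only the interval of Dab2 with BPA leaves out 0.

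For Dab2 the call with BPA depended on the probe set. The 4 probe sets gave differences of -0.54 (the chosen one), -0.96, -0.47 and -1.08. The probe set 1423805_at had 7.92, 8.11 and 8.06 on BPA day8 arrays and 8.87, 8.63 and 9.47 on control day8 arrays, without overlap, and in place of the chosen one it passed (adjusted p = 0.0215 by limma). The chosen probe set passed with a variance prior that follows the mean signal (adjusted p = 0.0361) and without control day8 replicate 2 (-0.77, adjusted p = 0.0263), and was at -0.27 without control day8 replicate 3 (adjusted p = 0.228). With the mean of its probe sets Dab2 was at -0.76 (adjusted p = 0.247).

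The array that stood apart moved these results. Without control day8 replicate 3 the median difference of the 7 genes was 0.42 with NP, with 6 above 0, and -0.06 with BPA, with 3 above 0. Amn, the anchor of cubilin, then passed with NP (0.58 ± 0.16, adjusted p = 0.0444 by limma). It was at -0.10 without control day8 replicate 1 and at -0.27 without control day8 replicate 2. Control day8 replicate 3 was set apart by its values for these same genes, so the Amn call without it is a description. Without control day8 replicate 3 the S100g difference was 1.39 ± 0.59 with NP (adjusted p = 0.153) and 0.51 ± 0.59 with BPA (adjusted p = 0.58). With NP, Cubn was at 0.44, Lrp2 at 0.42, Dab2 at 0.16, Tmprss2 at 0.16 and Cited1 at -0.035. With BPA, Cubn was at 0.074, Amn at 0.21, Lrp2 at -0.061, Tmprss2 at -0.36 and Cited1 at -0.16. None of these values passed. With BPA, 4 of 7 lay below the control without this array, against 7 of 7 without control day8 replicate 1 or 2.

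The comparison of NP with BPA used the control arrays only for the shared estimate of spread. All 7 genes were higher with NP, by 0.13 for Cited1 up to 0.88 for S100g, with a median of 0.43 against -0.02 over all genes. The arrays did not overlap for 5 of 7 (Cubn, Amn, Dab2, Tmprss2 and Cited1), where 7.21% of all genes were higher and 9.74% lower with NP without overlap. None of the 7 passed (limma, adjusted p between 0.64 and 0.986), and 0 of 7 had an unadjusted p under 0.05. The spread in this fit also held control day8 replicate 3 and day 0 values under background. In a fit of the 2 groups alone the SE was 0.14 for Tmprss2, 0.09 for Cited1, 0.13 for Dab2 and 0.15 for Amn. For Cubn it was 0.16, for Lrp2 0.30 and for S100g 0.60. None passed in that fit either (lowest adjusted p = 0.456 by limma, for Tmprss2). The genes share the arrays and so are not independent counts. Over all genes 1 of 13067 passed (0.00765%), and 1095 had an unadjusted p under 0.05. That gene, Tgfb3, a growth factor (3.15 ± 0.33, adjusted p = 0.0425 by limma), is named after its value was seen. Dab2 had a difference of 0.43 ± 0.22 (95% interval -0.06 to 0.91), Cubn 0.37 ± 0.25 (-0.20 to 0.93), Amn 0.37 ± 0.36 (-0.43 to 1.17), Lrp2 0.48 ± 0.28 (-0.15 to 1.11) and S100g 0.88 ± 0.61 (-0.49 to 2.24).

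Some regulators of this epithelium passed the test with the agents. Gata6, a transcription factor of extraembryonic endoderm, was at 7.95 ± 0.26 (SD, n = 3) with NP, 7.52 ± 0.20 with BPA, 9.46 ± 0.32 in control day8 and 5.21 ± 0.20 in control day0. It fell by 1.51 ± 0.20 with NP (adjusted p = 0.00191 by limma) and by 1.94 ± 0.20 with BPA (adjusted p = 0.000405). Its 95% interval with BPA ran from -2.39 to -1.50; its difference from the 7 genes was not tested. Foxa1, a forkhead factor of endoderm, fell by 2.50 ± 0.38 with BPA (adjusted p = 0.00209) and by 1.45 ± 0.38 with NP (adjusted p = 0.0335). The NP call of Foxa1 ended without control day8 replicate 1 or 2, BPA day8 replicate 2 or NP day8 replicate 2 or 3 (adjusted p up to 0.117).

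Of the 10 regulators tested, 0 were higher and 2 lower with NP (median -0.10), and 0 were higher and 3 lower with BPA (median -0.41). The third was Foxa3 (-0.77 ± 0.25, adjusted p = 0.0496), which the naming rule had left out and for which no alternative was run. Hnf4a, a nuclear receptor needed for the secretory program of visceral endoderm, was at -0.14 ± 0.37 with NP and -0.31 ± 0.37 with BPA. Sox17, an endoderm factor, was at 0.38 ± 0.25 and -0.10 ± 0.25 in turn, and neither gene passed (adjusted p from 0.352 to 0.848). At day 8 against day 0 in the control, 9 of the 10 rose and 1 fell (median 3.42). Of all genes, 14.2% passed with NP, 22.2% with BPA and 48.7% at control day8 against day0. The counts of this list and of those below stand beside these shares.

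**Figure D4:**
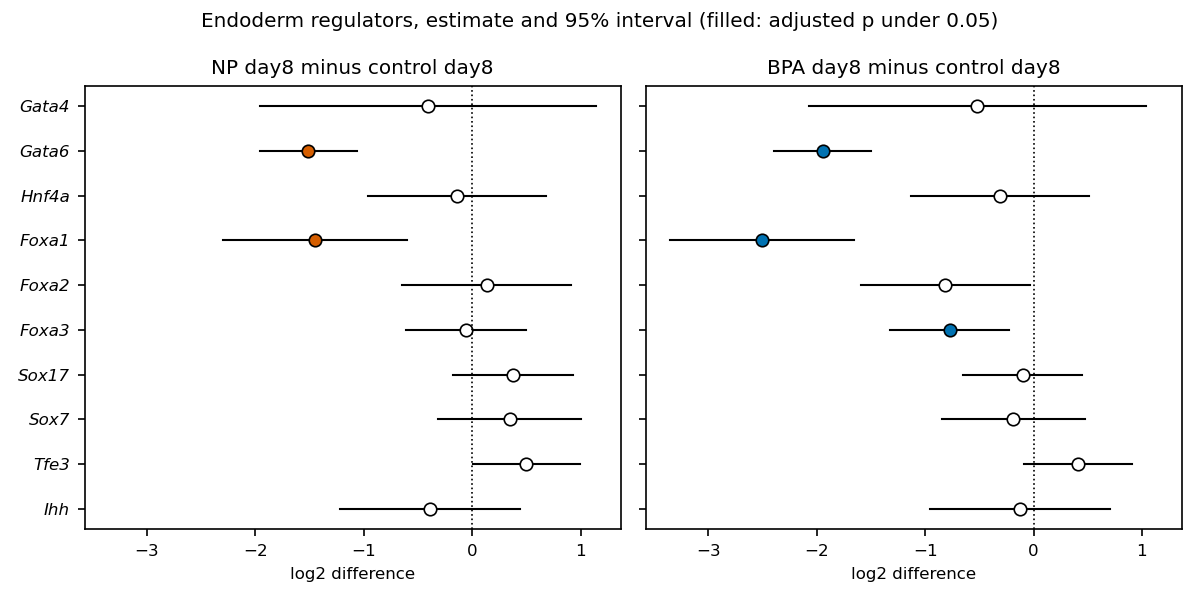
Log2 differences of NP day8 and BPA day8 from control day8 (horizontal axis) for the 10 endoderm regulators tested, as estimates with 95% intervals from limma, filled where the adjusted p is under 0.05. Gata6 and Foxa1 are filled in both panels and Foxa3 with BPA, while Hnf4a, Sox17 and Sox7 have intervals that include 0 in both panels.

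Of 20 receptor and endocytic adaptor partners tested, 0 passed with NP by limma (median -0.09), and 0 rose and 2 fell with BPA (median -0.02). Itsn1, a scaffold of clathrin-coated pits, was at -0.80 ± 0.15 (adjusted p = 0.00564), and Hip1, which links clathrin to actin, at -0.73 ± 0.23 (adjusted p = 0.0493). The Itsn1 call ended with the mean of probe sets. The Hip1 call ended without 9 of the 12 arrays in turn (adjusted p up to 0.152) and with the replicate number as a block. In control day8 against day0, 11 of the 20 rose and 1 fell (median 0.50). Of 17 endosome and lysosome genes 10 rose and 1 fell over that time (median 0.53), 0 rose and 1 fell with NP (median 0.09), and 1 rose and 1 fell with BPA (median -0.03). With BPA, Ehd1, a protein of endocytic recycling, rose by 0.66 ± 0.15 (adjusted p = 0.0119) and Rab4a, a GTPase of recycling, fell by 0.47 ± 0.14 (adjusted p = 0.0376). With NP, Eea1, an early endosome tether, fell by 0.39 ± 0.11 (adjusted p = 0.038). The calls of Rab4a and Eea1 each ended without 7 of the 12 arrays in turn (adjusted p up to 0.121 and 0.132) and with the replicate number as a block. The Ehd1 call ended with the mean of probe sets.

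Among relatives of megalin in the LDL receptor family, 9 were tested, and 0 rose and 3 fell with NP (median -0.67), while 1 rose and 4 fell with BPA (median -0.13). Vldlr, the receptor for very low density lipoprotein, was at 8.36 ± 0.25 (SD, n = 3) with NP and 7.94 ± 0.26 with BPA, against 9.11 ± 0.18 in control day8. Its difference was -0.76 ± 0.21 with NP (adjusted p = 0.0431 by limma) and -1.17 ± 0.21 with BPA (adjusted p = 0.00477), and the NP call ended without 9 of the 12 arrays in turn (adjusted p up to 0.142). Lrp1, a scavenger receptor of many cell types, fell by 0.87 ± 0.17 with NP (adjusted p = 0.0108). With BPA, Lrp12 fell by 1.24 ± 0.29 (adjusted p = 0.0135), and Sorl1, a sorting receptor, rose by 1.20 ± 0.20 (adjusted p = 0.00308). The Lrp12 call ended in a fit of the compared groups alone. In control day8 against day0, 6 of the 9 rose and 0 fell by limma (median 0.87).

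Of 9 genes tested for cargo of megalin and cubilin, 0 passed with NP by limma (median 0.00), and 0 rose and 2 fell with BPA (median -0.52). Clu, an apolipoprotein, was at -0.45 ± 0.13 (adjusted p = 0.0354). Shh, a morphogen that megalin binds, was at 5.05 ± 1.64 (SD, n = 3) with NP and 3.62 ± 0.63 with BPA, against 6.86 ± 0.96 in control day8, and it fell by 3.24 ± 0.77 with BPA (adjusted p = 0.0158). These calls ended without 5 arrays in turn for Clu (adjusted p up to 0.108) and 4 for Shh (up to 0.0588). Shh was at 3.20 and 3.31 on BPA day8 replicates 2 and 3, under the background level, so the size of its fall is uncertain. In the alternative with the smallest change its difference was -2.23. In control day8 against day0, 8 of the 9 rose (median 2.86).

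Of 14 apical membrane and junction genes tested, 2 rose and 0 fell with NP (median -0.08), and 2 rose and 1 fell with BPA (median -0.20). Cdh1, the epithelial cadherin, was at 11.07 ± 0.01 (SD, n = 3) with NP and 11.29 ± 0.06 with BPA, against 10.33 ± 0.13 in control day8, a rise of 0.74 ± 0.09 with NP (adjusted p = 0.0014) and 0.95 ± 0.09 with BPA (adjusted p = 0.000332). Epcam, an epithelial adhesion protein, rose by 0.75 ± 0.14 with NP (adjusted p = 0.0103) and 0.70 ± 0.14 with BPA (adjusted p = 0.00819). Both Epcam calls ended in a fit of the compared groups alone, and the NP call also with the mean of probe sets. ES cells express Cdh1 and Epcam too. Podxl, a sialomucin of apical membranes, was at -0.78 ± 0.23 with BPA (adjusted p = 0.0399), a call that ended without 7 of the 12 arrays in turn (adjusted p up to 0.125). Over control differentiation 7 of the 14 rose and 1 fell (median 0.78).

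Relatives and partners of the remaining members were few. Of 4 calcium transport partners of S100g, 0 rose and 1 fell with each agent: Atp2b1, the plasma membrane calcium pump, at -0.58 ± 0.12 with NP (adjusted p = 0.0123) and -0.67 ± 0.12 with BPA (adjusted p = 0.00397). The NP call ended without control day8 replicate 1 or NP day8 replicate 2 (adjusted p up to 0.053). Of 7 genes of the CITED family and its partners, 1 rose and 0 fell with each agent, the transcription factor Tfap2c, by 1.09 ± 0.23 with NP (adjusted p = 0.0145) and 1.67 ± 0.23 with BPA (adjusted p = 0.00131). Its NP call ended without control day8 replicate 1 or NP day8 replicate 2 (adjusted p up to 0.0595). Of 6 transmembrane serine proteases and their inhibitors, 1 rose and 0 fell with each agent, the inhibitor Spint2, by 0.39 ± 0.10 with NP (adjusted p = 0.0308) and 0.44 ± 0.10 with BPA (adjusted p = 0.0127). The BPA call of Spint2 ended in a fit of the compared groups alone. With NP it was lost without control day8 replicate 1 or 2 or any NP array (adjusted p up to 0.0914). In control day8 against day0, 2 of 4, 3 of 7 and 5 of 6 genes of these lists rose, and 1, 0 and 0 fell by limma.

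Against BPA, NP left 0 genes of these 9 lists past the threshold by limma. The marker list shares 4 genes with the cargo list and 3 with the regulators. The medians of the 9 lists ran from -0.47 for the transmembrane serine proteases to 0.49 for the cargo genes, with the regulators at 0.45, the calcium partners at -0.24 and the LDL receptor family at -0.13. Among the marker lists the neural one had the highest median (0.65), above visceral endoderm (0.54), and macrophage the lowest (-0.26), against -0.02 over all genes.

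Markers of other cell types differed between the same cultures, and their part in the values of the 7 genes was not tested. The summed signal of 9 fibroblast markers was 483 to 775 with NP and 564 to 722 with BPA, against 5353 to 8170 in control day8 and 6527 to 8543 in control day0, and Mmp3 lay under background on all NP arrays. Of the 9, 0 rose and 5 fell with NP and 0 rose and 6 fell with BPA by limma. In control day8 against day0, 2 of them rose and 6 fell (median -1.35). S100a4 was at a mean of 10.21 in control day0, 3.09 in control day8, 3.01 with NP and 3.14 with BPA. Thy1 was at 8.18, 2.97, 3.49 and 2.87 in that order, and Mmp3 at 7.09, 1.60, 2.30 and 2.25. Col3a1 was at 10.38, 11.41, 6.45 and 6.77, and Postn at 8.57, 11.08, 5.93 and 5.89. Similar sums in control day0 and control day8 thus do not mean similar markers. Fibroblasts also express Dab2. The 5 markers of undifferentiated ES cells summed to 5356 to 7705 with NP and 6780 to 7587 with BPA, against 1225 to 1995 in control day8 and 10660 to 11390 in control day0. All 5 rose with each agent by limma (median 2.32 with NP and 2.42 with BPA). Of the 8 visceral endoderm markers 0 passed with either agent by limma (median -0.04 with NP and -0.54 with BPA). Their sums with NP lay above those with BPA without overlap, and both overlapped with control day8. A linear sum follows its brightest markers. Singly, Afp, Ttr, Apoa1, Rbp4 and Foxa2 were higher with NP than with BPA without overlap, as 7.21% of all genes were. Apob, Hnf4a and Ihh overlapped, and the mean of Ihh was lower with NP (4.44) than with BPA (4.70).

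Parietal endoderm, the other yolk sac layer, shares Dab2 and some further genes with visceral endoderm. Its 9 markers summed to 10970 to 18550 with NP, 9768 to 12970 with BPA, 10060 to 10190 in control day8 and 3133 to 3833 in control day0, with 1 higher with NP and 0 called with BPA by limma. Trophoblast, which also expresses Cited1 and Dab2, had 9 markers summing to 824.5 to 1291 with NP, 1097 to 2014 with BPA, 840.5 to 1106 in control day8 and 110 to 167 in control day0. Of these, 1 was higher and 1 lower with NP, and 2 were higher with BPA. The 4 measured macrophage markers summed to at most 292 with NP, 371 with BPA, 271 in control day8 and 87.1 in control day0, and the 4 neural markers to at most 185, 173, 185 and 338 in the same order. In each of these lists 1 marker was higher and 0 lower with each agent by limma. Macrophages can express Dab2 and neural epithelium Lrp2.

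**Figure D5:**
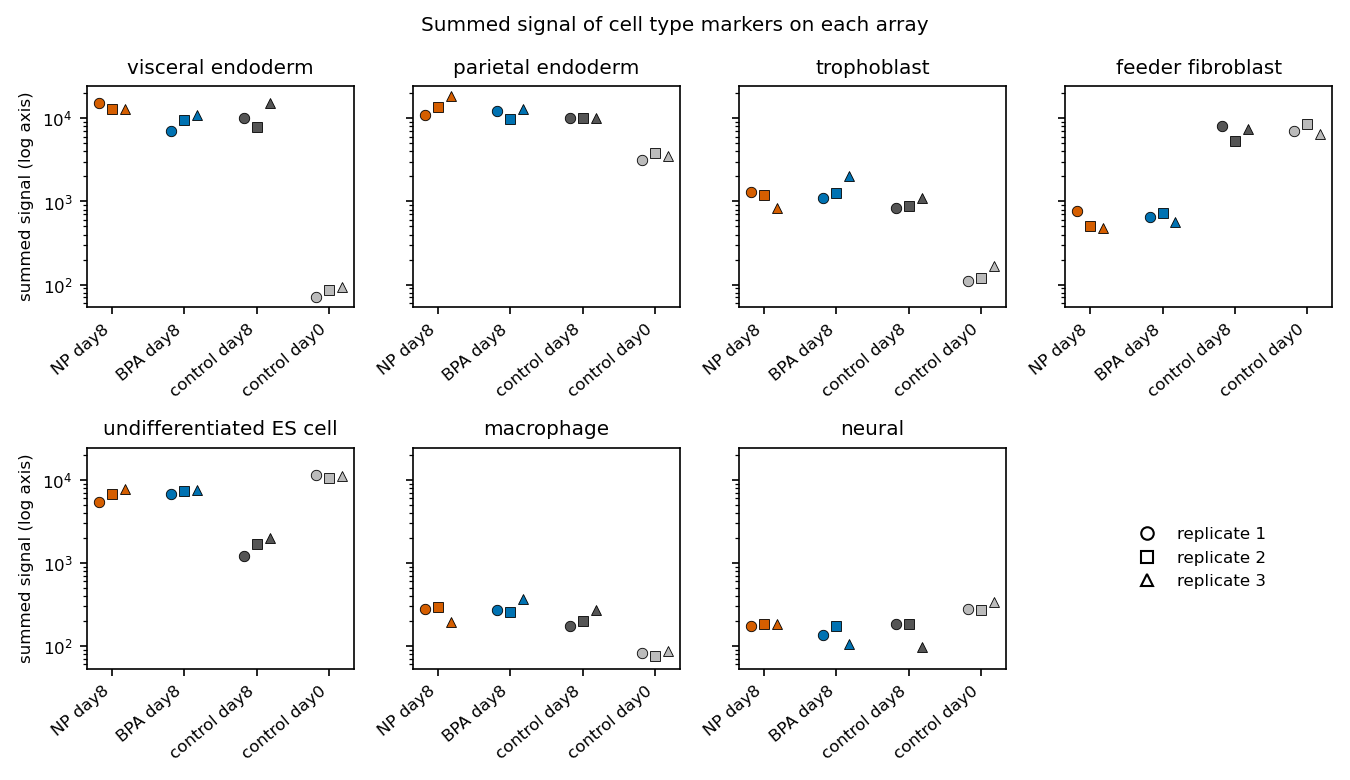
Summed linear signal of the markers of 7 cell types (vertical log axis) on each array, by group, with the replicate number as symbol. Visceral endoderm markers lie between 7055 and 15440 on all day 8 arrays and under 100 at day 0, while fibroblast markers are lower and undifferentiated ES cell markers higher in both agent groups than in control day8.

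The genes most alike in pattern were sought by the root mean square difference over the 12 arrays, each gene centred on its own mean. The closest gene was B4galnt2 for Cubn (0.27 on the log2 scale) and Amn (0.28), and Car7 for Dab2 (0.27). For Lrp2 it was Lrpap1 (0.30), known as the chaperone that escorts megalin through the secretory pathway, which differed from day 0 by 1.58 in control day8. Lrp2 differed by 1.56 on its chosen probe set and by 0.79 on 1452320_at, for which likeness was not sought. These 4 matches were the same with values under the background level set to it, an alternative chosen after seeing the data. All signals of these 4 members lay above that level, so the floor left them unchanged and the sameness is no support. For S100g, Tmprss2 and Cited1 the closest gene was another one with that floor, and of the 10 genes closest to the mean of the 7, only Lgals2 was shared (1 of 10). Those matches rest on signals under background and are not listed. Of the listed matches, Car7 had 3.77, 2.87 and 3.06 on control day0 arrays, of which 2.87 and 3.06 lay under background. Among all genes, patterns with small differences are easier to match, so these distances are a description.

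Over the 9 day 8 arrays the smallest root mean square difference between members was 0.15, between Dab2 and Tmprss2, and Cubn and Lrp2 differed by 0.20. Amn and Lrp2 differed by 0.43 and Lrp2 and Tmprss2 by 0.44, about as much as these genes varied on their own (SD over the 9 arrays 0.50 for Amn, 0.40 for Lrp2 and 0.42 for Tmprss2). S100g stood apart, with differences of 0.68 to 0.82 from the other members. Over all 12 arrays the pairs Cubn and Dab2 (0.23), Amn and Dab2 (0.25) and Cubn and Amn (0.29) were the closest, all with day 0 signals above background.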

How the data were processed

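RNA was measured on 12 arrays, and their number limits the precision. The authors deposited log2 signals of probe sets computed with MAS5, per the submitters' processing notes; version and scaling target are not given in the sources used here. The mean signal without the top and bottom 2% was 100.0 on every array. Of 45101 probe sets, 64 were controls. The brightest 60% by mean over all arrays were kept (27023), and the brightest probe set stood for its gene (13067 genes), named by the platform's gene table. Of the probe sets, 34945 had 1 gene symbol, 932 several and 9211 were not listed, with some controls among these counts. All 7 symbols matched RefSeq promoter windows (GRCm38.p6).

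Group means were fitted to these log2 signals over the 12 arrays with limma 3.58.1 in R 4.3.3, which had 8 residual and 1.57 prior degrees of freedom. Every test was 2-sided, with Benjamini-Hochberg adjustment over all genes, a threshold of 0.05 and 95% intervals. The script was tested on simulated data. The members and lists were chosen with earlier results of these data known. List genes were named by rule: for each list, direction and agent, up to 2 called genes with the largest change. The alternatives were a pseudocount of 16, the background level as a floor, other filters, quantile normalization, median centring, other probe sets or their mean, a trended prior, only the compared groups, the replicate number as a block and each array left out. Python 3.11.15 with matplotlib 3.10.9 made the figures.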

Additional observations from a re-analysis of the deposited data

How the results depend on the processing

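The count of the 7 genes called was 0 in each agent comparison as given. It was 1 with BPA under a variance prior with a trend, and 0 to 1 with each array left out in turn for BPA and for NP, while NP against BPA gave 0 in each alternative run. Dab2 also passed with BPA on its probe set 1423805_at. Of all genes, the number called with NP was 1852, against 1182 with no filter, 645 with only the compared groups and 802 to 1874 with an array left out (802, 1022, 854 and 896 without control day8 replicate 1 or 2 or NP day8 replicate 2 or 3). With BPA it was 2906, against 1822 to 2949 with an array left out (lowest without control day8 replicate 1). For NP against BPA it was 1, against 0 with the pseudocount, the floor, a stricter filter, median centring, a trended prior or the 2 groups alone, 3 with the mean of probe sets, 4 with no filter and 0 to 3 with an array left out. Signs turned for S100g with BPA under median centring (0.0016), Cubn with NP on 1426990_at (-0.12), Lrp2 with BPA on 1445901_at (0.11) and 1452320_at (0.10), and Tmprss2 on 1459510_at with NP (0.55) and at control day8 against day0 (-1.06). Signals of 1459510_at lay mostly under background, so its signs have no meaning. With an array left out, the NP differences ran from -0.036 to 0.44 for Cubn, -0.27 to 0.58 for Amn, -0.34 to 0.16 for Dab2 and -0.37 to 0.16 for Tmprss2. The BPA differences ran from -0.40 to 0.074 for Cubn, -0.64 to 0.21 for Amn, -0.43 to 0.059 for Lrp2 and -0.63 to 0.51 for S100g. Where no value shows it, the cause was not tested. The 9 lists held 31 calls against control day8, of which the 27 named by rule were followed: 16 held with every array left out and 10 under every alternative run. Scaling moved the median of all genes at control day8 against day0, 0.12 as given, to 0.01 after quantile normalization or median centring, and the 7 genes were higher in 7 of 7 under both. The labels' replicate numbers were also used as a block. Same-numbered arrays had residual correlations of -0.01 to 0.08 over all genes. Correlations this small show no clear pairing by number, and with 3 arrays per group they cannot exclude it. With the replicate block, 0 of the 7 genes passed in any agent comparison, and 0 genes of all passed for NP against BPA, while the calls of Hip1 and Rab4a with BPA and Eea1 with NP ended. The array files hold no detection calls, and signals under 3.41 have no order.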
